A study of Bos taurus with 17 samples.

Results

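The plasminogen activators PLAT and PLAU, the urokinase receptor PLAUR, the serine protease inhibitor SERPINE2, the matrix metalloproteinases MMP2 and MMP14 and the tissue inhibitors TIMP1, TIMP2 and TIMP3 were followed in cumulus cells of the cow, which surround and feed the oocyte. Probes were chosen by the gene name given in the array's design, or by the design's description where the gene name was only a locus number. By this rule 8 of the 9 genes had a probe, with 9 probes among the 21475 non-control probes of the array, and TIMP3 had none. A probe was called valid when 80% or more of the arrays of every stage had it present, which left 13865 probes in all and, among them, 8 probes of 7 of these genes. MMP14 was the gene that had a probe but no valid one.

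The study compared 3 stages of the oocyte, and its labels give the developmental capacity of the oocyte at each. NC1 cells came from 6 calves before puberty, 3 to 6 months old, with follicles of 3 to 6 mm, whose prophase I oocytes are labelled developmentally incompetent. C1 cells came from 6 adult cows of varied age, whose prophase I oocytes are labelled competent, and as for the calves the follicles were aspirated after slaughter and the cumulus was compact. C2 cells came from 5 cycling, non-lactating Holstein cows of 3 to 5 years, which received progestagen implants and FSH/LH superovulation. Their follicles, larger than 8 mm, were aspirated in vivo (ovum pick up) at 60 h from an injection of prostaglandin F2α, the cumulus was expanded and the oocytes, in metaphase II, are labelled fully competent. Age and oocyte capacity therefore cannot be told apart from NC1 to C1, nor can meiotic stage, follicle size, hormones and collection from C1 to C2. The labels name the tissue as ovarian follicles, whereas the methods describe isolated cumulus cells. Of 10 granulosa and cumulus markers, 9 had a probe and all 9 were well above background on every NC1 and C1 array, and 8 on every C2 array.

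Plasminogen activators are serine proteases that cut the circulating zymogen plasminogen into plasmin, a broad protease that degrades matrix proteins and can activate other proteases. Tissue-type activator (PLAT) acts mainly on fibrin and cell surfaces, urokinase (PLAU) acts when bound to its receptor PLAUR, and serpins such as SERPINE2, also called protease nexin-1, trap both activators. Matrix metalloproteinases cut collagens, proteoglycans and other matrix proteins and are held in check by the tissue inhibitors of metalloproteinases, and both systems have long been studied in the ovary for their part in follicle rupture and in the remodelling of the matrix around ovulation.

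The array reads each gene through a 60-base probe, and the last 30 bases of the probes behind the main results are printed here. Their position in the messenger was not found. Capitals mark AATAAA, the canonical polyadenylation hexamer, read on the strand of the probe.

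PLAT probe A_73_112170: taccgtactggaatAATAAAttctgatata
PLAUR probe A_73_105536: aaccagaggagaaaagctagcaaaagctgc
TIMP1 probe A_73_120461: tccctgctcatccatcccctgcaaactgca
TIMP2 probe A_73_108874: gttcagactggtccagctccgacatccctt
MMP2 brighter probe A_73_112336: cattctcacccccacctggtaatttaagaa
MMP2 dimmer probe A_73_114013: aaaaatcagtgagtacgAATAAAgacacta
TIMP3 or CHRNA3 probe A_73_116890: ctaaattttgtagcactgtttacagttttc

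The hexamer was found in these 30 bases for 2 of the 9 probes, those of PLAT and the dimmer MMP2 probe, and in 12.2% of the 15239 probes of 60 bases whose sequence is listed. The MMP2 probes thus read different stretches under the same accession. No genome build is named for the array, so that no coordinates are given.

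Values are log2 of the background-corrected signal with the median of the array subtracted, so that 0 is the median probe of an array and a difference of 1 is 1 log2 unit of signal. They compare a probe between arrays and do not rank probes against each other. There were 6 slides and 2 scan days for the 17 arrays, with an NC1 and a C1 array on every slide and a C2 array on all but 1. Between 66.2% and 82.8% of probes were well above background per array and 0 spots were saturated. Over all valid probes, the C2 arrays fell into the pair of replicates 1 and 5, the pair of replicates 3 and 4, and replicate 2 alone. The SD of the log2 difference was 0.444 and 0.512 within these pairs and 1.05 to 1.27 between other C2 arrays. Between 2 arrays of NC1 or of C1 it ran from 0.431 to 0.756, so that the pairs were about as close as arrays of those stages. The methods give 5 cows for C2, and the labels do not say which cow or collection each sample came from, so that results are also given with each pair averaged to 1 replicate, a choice made after the distances were seen.

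Across the 3 stages, 4 of the 7 genes with a valid probe passed the moderated F test of limma at an adjusted p below 0.01, beside 28.6% of all valid probes. These were PLAT, PLAUR, TIMP1 and TIMP2. The same 4 were higher in C2 than in C1, beside 15.3% of all valid probes, and higher in C2 than in NC1, beside 15.5%. None of the 7 was lower in C2 than in C1 or in NC1 by limma, beside 12.8% and 12.6%. None of the 7 differed between C1 and NC1, beside 0.0577% of all valid probes. At an unadjusted p below 0.05 these counts were also 0. Shares of all valid probes called are given at the adjusted threshold alone, so that unadjusted counts stand without one. For these 4 genes every C2 array lay above every C1 array, which held for 10.7% of all valid probes, and above every NC1 array, which held for 10.6%. The median log2 change over the 7 genes was 3.11 from C1 to C2 and 3.13 from NC1 to C2, against 0.02 and 0.11 over all valid probes. From NC1 to C1 the median was -0.18, against 0.05. The members were chosen with earlier results of these data known, so that setting their counts and medians beside all valid probes is only descriptive.

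**Figure D1:**
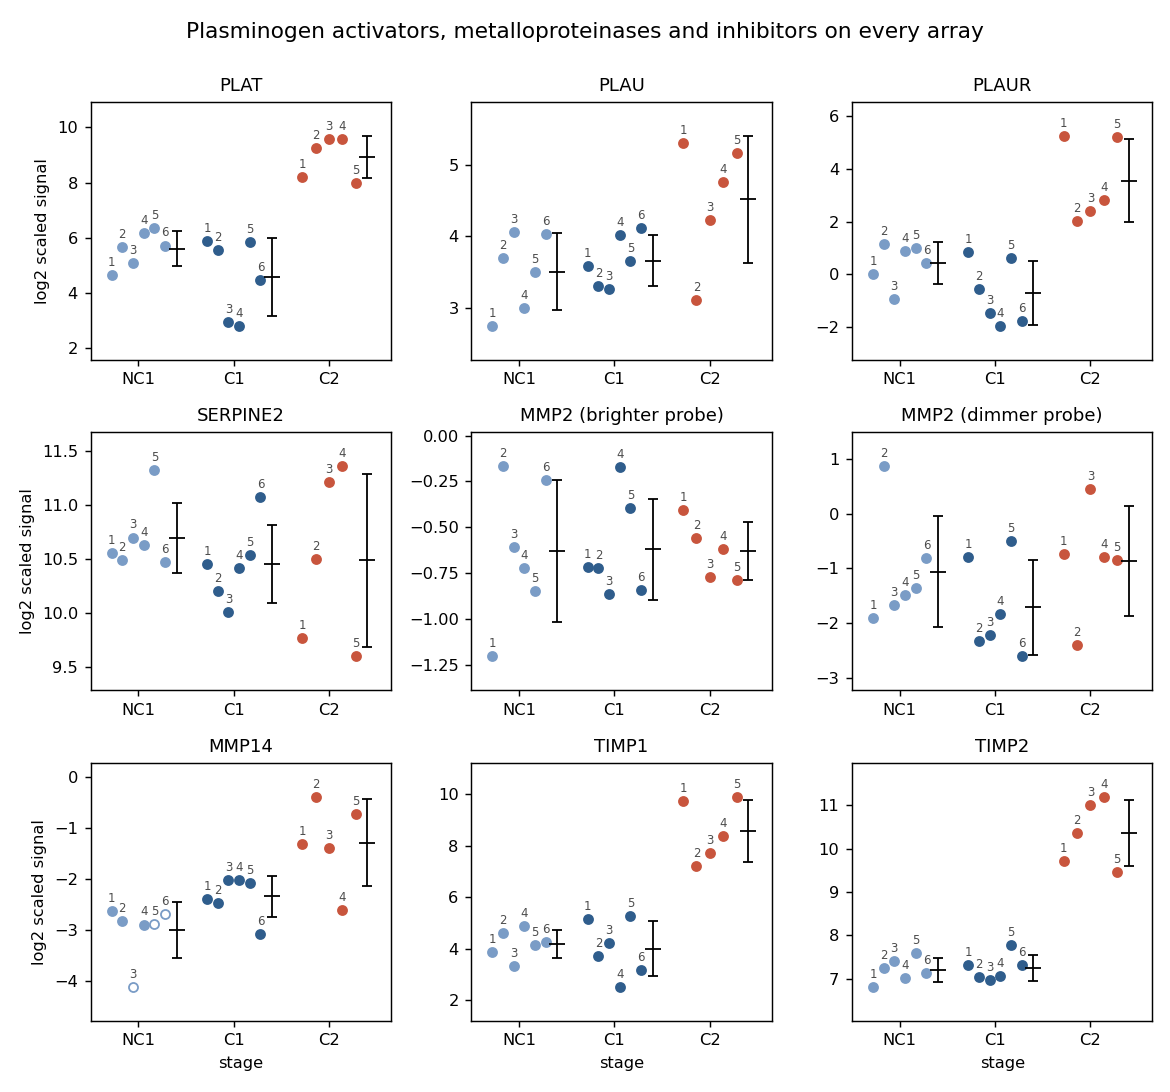
Log2 median-scaled signal (vertical axis, own scale in each panel) of the 9 probes on each of the 17 arrays, by stage, with the replicate number above each point and the mean and SD of the stage in black. Open points were not well above background. PLAT, PLAUR, TIMP1 and TIMP2 have all 5 C2 arrays above all arrays of the other stages, whereas SERPINE2 and MMP2 overlap.

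PLAT, the tissue-type plasminogen activator, was the activator with the larger change. Its log2 scaled signal was 8.19, 9.27, 9.58, 9.59 and 8.00 on C2 replicates 1 to 5. On the C1 arrays it ranged from 2.81 to 5.88 with a median of 5.01, and on the NC1 arrays from 4.66 to 6.36 with a median of 5.68. All C2 arrays were high and did not overlap with either stage, and within C1 replicates 3 and 4 stood low, at 2.93 and 2.81. The mean rose by 4.35 from C1 to C2 (SE 0.56, adjusted p = 6.07e-06 by limma), a 20.3-fold rise, and by 3.32 from NC1 to C2 (SE 0.56, adjusted p = 0.000113 by limma). The 2-sided exact permutation test gave p = 0.00433 for both, the smallest that 5 arrays against 6 allow. The rise was seen on 5 of 5 slides, and over C1 it was 3.09 on the first scan day and 5.82 on the second, which held the 2 low C1 arrays. Between NC1 and C1 the difference was -1.02 (SE 0.53, adjusted p = 0.565 by limma) and was not called.

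PLAU, the urokinase-type activator, gave no call. Log2 scaled signals of PLAU were 5.31, 3.11, 4.23, 4.77 and 5.17 on C2 replicates 1 to 5, between 3.26 and 4.12 with a median of 3.61 on the C1 arrays, and between 2.75 and 4.06 with a median of 3.60 on the NC1 arrays. On 4 of 5 C2 arrays it was above all arrays of the other stages, and on replicate 2 it lay below every C1 array. The difference was 0.86 from C1 to C2 (SE 0.35, adjusted p = 0.0534 by limma) and 1.01 from NC1 to C2 (SE 0.35, adjusted p = 0.0258 by limma). Without C2 replicate 2 the differences were 1.22 and 1.37 and both passed the threshold (adjusted p = 0.00237 and 0.000976 by limma), so that 1 array decides the call. With the close C2 replicates averaged they were 0.63 and 0.78 (adjusted p = 0.239 and 0.139 by limma).

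PLAUR, the receptor that holds urokinase at the cell surface, rose with PLAT. On the log2 scale its scaled signal was 5.27, 2.01, 2.41, 2.84 and 5.22 on C2 replicates 1 to 5. On the C1 arrays it ranged from -1.95 to 0.85 with a median of -1.003, and on the NC1 arrays from -0.95 to 1.15 with a median of 0.66. There was no overlap of C2 with the others, and replicates 1 and 5 stood apart above the other three. The mean rose by 4.26 from C1 to C2 (SE 0.65, adjusted p = 4.49e-05 by limma), or 19.2-fold, and by 3.13 from NC1 to C2 (SE 0.65, adjusted p = 0.000914 by limma), with the smallest exact permutation p in both. With the close C2 replicates averaged, the rise over NC1 was 2.87 and its adjusted p 0.00541 by limma. Between NC1 and C1 the difference was -1.13 (SE 0.62, adjusted p = 0.595 by limma), below the NC1 array on 6 of 6 slides but not called.

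SERPINE2, the inhibitor of both activators and of thrombin, showed no call in any comparison. Log2 scaled signals of SERPINE2 were 9.77, 10.498, 11.21, 11.36 and 9.60 on C2 replicates 1 to 5, from 10.01 to 11.08 with a median of 10.43 on the C1 arrays, and from 10.47 to 11.33 with a median of 10.59 on the NC1 arrays. The C2 arrays spread to both sides of C1, with replicates 3 and 4 above every C1 array and replicates 1 and 5 below every C1 array. The difference was 0.04 from C1 to C2 (SE 0.30, adjusted p = 0.931 by limma) and -0.21 from NC1 to C2 (SE 0.30, adjusted p = 0.617 by limma). By scan day the C2 to C1 difference was -0.73 on the first day, which held C2 replicates 1, 2 and 5. It was 1.07 on the second, which held replicates 3 and 4. Among the C2 arrays alone, day and the pair of replicates 3 and 4 cannot be told apart, for this or any other gene. NC1 and C1 had arrays on both days. In C1 SERPINE2 was at 10.45, 10.53 and 11.08 on the first day and 10.21, 10.01 and 10.42 on the second. In NC1 it was at 10.55, 10.49 and 11.33 on the first and 10.70, 10.63 and 10.47 on the second. The part of scan day in the C2 spread was not tested. Within an array, the log2 signal of PLAT minus that of SERPINE2 ran from -7.61 to -4.57 on C1, from -5.89 to -4.46 on NC1 and from -1.77 to -1.23 on C2. The ratio of activator to inhibitor signal was thus higher on every C2 array than on any other array, which shows unequal change of these 2 probes and not their relative abundance.

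**Figure D2:**
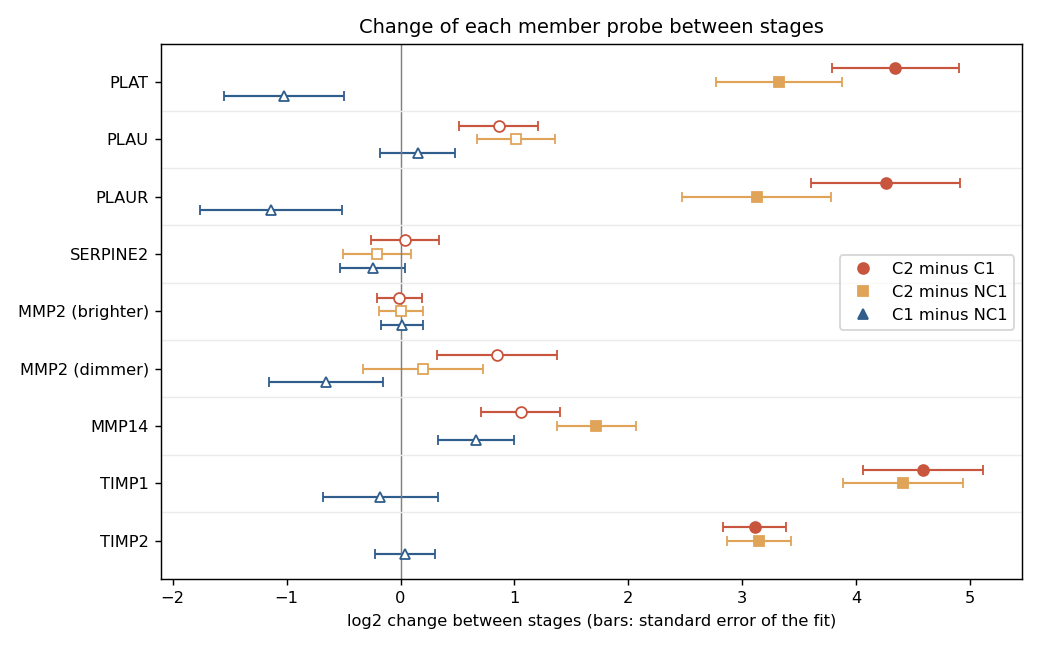
Log2 change (horizontal axis) of each of the 9 probes between stages, with bars of 1 standard error of the fit. Filled symbols passed an adjusted p of 0.01 and open symbols did not. PLAT, PLAUR, TIMP1 and TIMP2 rose by 3.11 to 4.59 from C1 to C2, whereas the changes from NC1 to C1 were all open; MMP14 was fitted over a wider set of probes.

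MMP2, the gelatinase that cuts denatured collagen and basement membrane collagen, was read by a pair of probes, neither of which gave a call. On C2 replicates 1 to 5 the brighter probe gave a log2 scaled signal of -0.41, -0.56, -0.77, -0.62 and -0.79. It ranged from -0.86 to -0.17 with a median of -0.72 on the C1 arrays, and from -1.20 to -0.17 with a median of -0.66 on the NC1 arrays. The 3 stages overlapped throughout, and the difference was -0.01 from C1 to C2 (SE 0.20, adjusted p = 0.973 by limma) and 0.00 from NC1 to C2. The dimmer probe, which ends near a polyadenylation hexamer, gave -0.74, -2.41, 0.45, -0.79 and -0.85 on C2 replicates 1 to 5, from -2.61 to -0.49 on C1 and from -1.91 to 0.87 on NC1. Its stages overlapped as well, with a difference of 0.85 from C1 to C2 (SE 0.53, adjusted p = 0.210 by limma) and 0.20 from NC1 to C2. Averaged over both probes, the C2 to C1 difference was 0.42 (exact permutation p = 0.203).

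MMP14, the membrane-type metalloproteinase that activates the MMP2 zymogen at the cell surface, exceeded background clearly on 3 of 6 NC1 arrays, 6 of 6 C1 arrays and 5 of 5 C2 arrays. It was therefore fitted over the 15256 probes present in any 2 of the 3 stages. MMP14 entered that fit through C1 and C2, where its signal was higher, so that its adjusted p against NC1 is only descriptive. On the log2 scale it was at -1.32, -0.39, -1.39, -2.60 and -0.73 on C2 replicates 1 to 5, from -3.07 to -2.01 with a median of -2.23 on C1, and from -4.11 to -2.63 with a median of -2.85 on NC1. All C2 arrays lay above the NC1 arrays, while replicate 4 fell among the C1 arrays. MMP14 was higher in C2 than in NC1 by 1.72 (SE 0.35, adjusted p = 0.000659 by limma), and the difference from C1 was 1.06 (SE 0.35, adjusted p = 0.0208 by limma). Without C2 replicate 4 the difference from C1 was 1.39 and passed the threshold (adjusted p = 0.00152 by limma). With normexp background correction and an offset of 50, the difference from NC1 was 0.44 and lost its call (adjusted p = 0.103 by limma).

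TIMP1, a secreted inhibitor of most metalloproteinases, had the largest C2 to C1 change of the 9 probes. Its log2 scaled signal was 9.74, 7.22, 7.70, 8.37 and 9.91 on C2 replicates 1 to 5, from 2.52 to 5.27 with a median of 3.95 on C1, and from 3.32 to 4.89 with a median of 4.20 on NC1. The C2 arrays were all above the others, and as for PLAUR replicates 1 and 5 were the highest. The mean rose by 4.59 from C1 to C2 (SE 0.53, adjusted p = 1.90e-06 by limma), or 24.04-fold, and by 4.41 from NC1 to C2 (SE 0.53, adjusted p = 3.15e-06 by limma). The rise over C1 was 4.43 on the first scan day and 4.56 on the second.

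TIMP2, which inhibits metalloproteinases and also takes part in the activation of MMP2 by MMP14, rose with the smallest standard error of the 4 genes called. On the log2 scale TIMP2 was at 9.72, 10.37, 11.00, 11.20 and 9.47 on C2 replicates 1 to 5, from 6.96 to 7.78 with a median of 7.18 on C1, and from 6.81 to 7.60 with a median of 7.19 on NC1. The NC1 and C1 arrays lay within 1 unit of each other and far below all C2 arrays, of which replicates 3 and 4 were the highest. The rise was 3.11 from C1 to C2 (SE 0.28, adjusted p = 8.90e-08 by limma), or 8.62-fold, and 3.15 from NC1 to C2 (SE 0.28, adjusted p = 8.47e-08 by limma). Over C1 the rise was 2.39 on the first scan day and 4.08 on the second. From NC1 to C1 the difference was 0.04 (SE 0.26, adjusted p = 0.984 by limma). The log2 signal of TIMP2 minus that of the brighter MMP2 probe ran from 10.12 to 11.81 on C2, against 7.24 to 8.17 on C1 and 7.38 to 8.44 on NC1, which again shows unequal change of the 2 probes.

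TIMP3, the inhibitor that binds to the matrix itself, could not be given a value. The design describes probe A_73_116890 as TIMP3 but names its gene CHRNA3, a nicotinic acetylcholine receptor subunit, and the accession it gives is that of CHRNA3. Its log2 scaled signal was 3.18, 2.89, 4.78, 5.39 and 2.89 on C2 replicates 1 to 5, from 3.36 to 4.26 with a median of 4.02 on C1, and from 3.62 to 6.08 with a median of 5.20 on NC1. The stages overlapped, and the differences from NC1 were -1.26 in C2 (SE 0.47, adjusted p = 0.0374 by limma) and -1.21 in C1 (SE 0.44, adjusted p = 0.324 by limma), neither called. Another CHRNA3 probe (A_73_102741) differed from it: it was higher in C2 than in C1 by 1.63 (SE 0.42, adjusted p = 0.00469 by limma). Which of the genes probe A_73_116890 reads cannot be told from the files, and it was not counted among the members.

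The genes fell into different orders on the single C2 arrays. PLAUR, TIMP1 and PLAU were highest on replicates 1 and 5 and lowest on replicate 2, whereas PLAT, TIMP2 and SERPINE2 were highest on replicates 3 and 4 and lowest on replicates 1 and 5. Replicates 3 and 4 were scanned on the second day and the others on the first, so that among the C2 arrays alone scan day and this pair cannot be told apart. Over the 17 arrays Pearson's r was 0.95 for PLAUR with TIMP1, 0.90 for PLAT with TIMP2 and 0.85 for TIMP1 with TIMP2, a description in which the points share stage, slide and, for C2, the pairs of close arrays. Among the C1 arrays PLAT, PLAUR and TIMP1 were also uneven. On C1 replicates 1 and 5 PLAT was 5.88 and 5.85, PLAUR was 0.85 and 0.62 and TIMP1 was 5.14 and 5.27. On C1 replicate 4 the same genes were at 2.81, -1.95 and 2.52, the lowest of the stage for each. The summed signal of 5 cumulus expansion markers (HAS2, TNFAIP6, PTX3, PTGS2 and AREG) was also uneven over C1, with 35.0, 31.6, 11.2, 3.69, 56.0 and 12.4 times the median signal of the array on replicates 1 to 6, highest on replicate 5 and lowest on replicate 4.

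**Figure D3:**
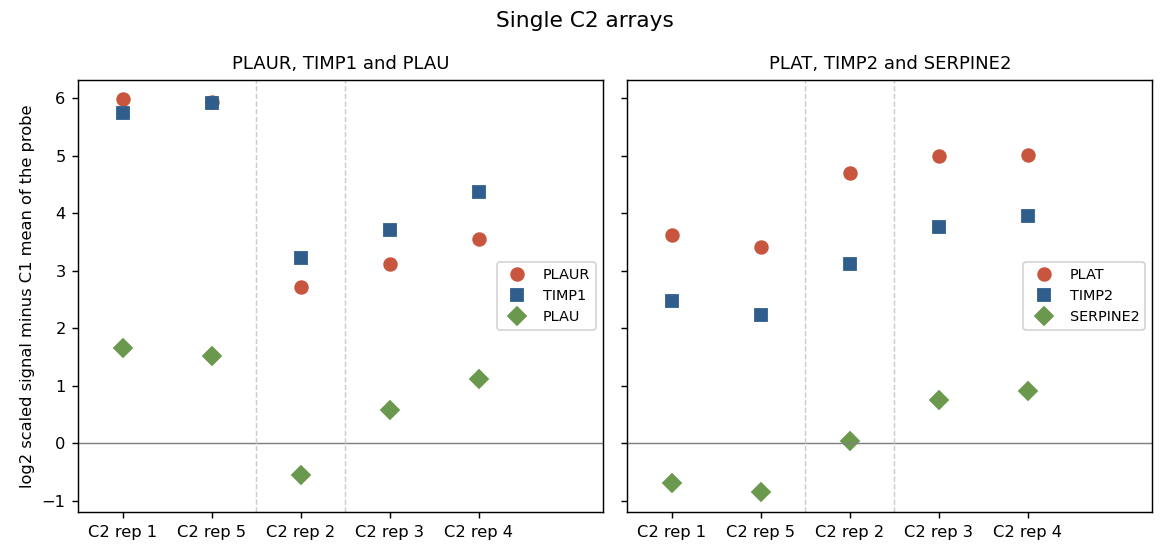
Log2 scaled signal of 6 genes on each C2 array minus the C1 mean of the same probe (vertical axis), with the arrays in the order of their close pairs, which dashed lines separate. PLAUR and TIMP1 lie 5.73 to 5.98 above the C1 mean on replicates 1 and 5 and 2.72 to 4.37 above it on the others, while PLAT, TIMP2 and SERPINE2 run the opposite way.

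Some markers of other cells moved with these arrays. The summed signal of 7 leukocyte markers, in multiples of the median signal of the array, was 13.9, 1.66, 7.97, 7.94 and 20.4 on C2 replicates 1 to 5, from 1.97 to 3.00 on C1 and from 3.58 to 9.85 on NC1. It was thus highest on replicates 1 and 5, and 5 of the 7 markers, among them the macrophage receptor CSF1R (log2 signal 2.69 and 3.25), were higher on both than on the other C2 arrays. ITGAM, also among these 5, was well above background on only 1 C2 array. The other lists were mixed. Of the 7 theca and stroma markers, 4 were higher on both than on the other C2 arrays, as was the smooth muscle gene TAGLN (5.18 and 4.77), and 2 were lower, as was LUM (7.18 and 6.16, against 7.52 to 8.64). Their sum was lowest on these replicates, at 347.5 and 303.4. Of the 7 endothelial markers, 3 were higher, as was VWF (2.46 and 1.94), and 3 were lower, as was KDR (-0.19 and 0.64, against 0.98 to 3.42). CDH5, also counted as lower, was not well above background on any array. The endothelial sum was 13.9 and 11.9 on replicates 1 and 5 and 13.1 on replicate 4. The granulosa list was lowest on these arrays, at 1283 and 1206, against 2844 to 4430 on the other C2 arrays. Such sums follow the brightest probes of a list most. Of the 9 granulosa markers, 5 were lower on both replicates than on the other C2 arrays and 0 were higher. The granulosa sum was 4059 to 5813 on the C1 arrays and 3828 to 8732 on the NC1 arrays. From C1 to C2 FSHR, HSD17B1 and FOXL2 changed by -3.55, -6.46 and -2.99, each called, and INHA by -0.29, not called. On C2 replicate 2 the leukocyte sum was below that of every C1 and NC1 array and TAGLN was at 0.36. The theca and stroma sum (451.7) and the endothelial sum (4.25) of this replicate were above those of every C1 and NC1 array. PLAUR (2.01) and TIMP1 (7.22) were also above all arrays of the other stages there. In these bulk samples more cells of a type and more RNA per cell cannot be told apart, and the part of other cells in the higher PLAUR, TIMP1 and PLAU signals of replicates 1 and 5 was not tested.

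The 7 endothelial markers summed to 4.25 to 13.9 on C2, against 2.32 to 3.00 on C1 and 2.43 to 3.80 on NC1, with CDH5 not well above background on any array. The 7 theca and stroma markers summed to 303.4 to 598.9 on C2, against 191.0 to 295.4 on C1 and 165.1 to 293.4 on NC1. Within both lists the genes went both ways from C1 to C2. KDR, ENG and VWF rose by 3.58, 1.44 and 0.49, whereas TEK, PECAM1 and CLDN5 differed by -0.78, -0.70 and -0.06. LUM, COL3A1 and COL1A1 rose by 3.79, 3.52 and 1.15, whereas INSL3, ACTA2, TAGLN and DCN differed by -0.78, -0.75, -0.30 and -0.07. Of these, KDR, ENG, LUM and COL1A1 passed the threshold. Red blood cell markers summed to at most 0.303 on any array. The 6 oocyte markers with a probe summed to 3.09 to 6.01 on C2, 4.52 to 40.2 on C1 and 43.7 to 99.8 on NC1. Cumulus expansion markers summed to 541.3 to 1500 on C2, against 3.69 to 56.0 on C1 and 9.71 to 30.98 on NC1. The part of these cells in the results was not tested.

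The other genes of the plasminogen system were read from a list of 14, of which 10 could be tested. From C1 to C2, 2 of the 10 rose and 1 fell, near the 15.3% and 12.8% of all valid probes. From NC1 to C2, 3 rose and 0 fell by limma, beside 15.5% and 12.6%. At an unadjusted p below 0.05, 1 fell, and no share of all valid probes is given at that threshold. ANXA2, which with S100A10 forms a surface receptor for plasminogen and tissue-type activator, rose by 3.43 over C1 (SE 0.20, adjusted p = 6.43e-10 by limma) and by 3.22 over NC1, to 9.20, 8.38, 9.03, 9.50 and 8.95 on C2 replicates 1 to 5. Another design entry described as similar to annexin A2 was well above background on 1 of 17 arrays. SERPINI1, or neuroserpin, an inhibitor of tissue-type activator, rose by 1.21 over C1 and by 1.02 over NC1. SERPINA5, an inhibitor of several serine proteases including urokinase, was higher in C2 than in NC1 by 0.93 (adjusted p = 0.00886 by limma), a call that was lost with the close C2 replicates averaged (adjusted p = 0.0679 by limma) and when any 1 of 15 of the 17 arrays was left out. SERPINB6, an intracellular serpin, was lower in C2 than in C1 by -1.06 (adjusted p = 0.00675 by limma), which was lost with the pairs averaged (adjusted p = 0.0120 by limma) and when any 1 of 7 arrays was left out.

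SERPINB2, an inhibitor chiefly of urokinase, gave no call. It ran from -2.57 to 8.79 over the C2 arrays, and its difference from C1 of 4.69 (SE 1.55) had an adjusted p of 0.0214 by limma. Without C2 replicate 2 that difference was 6.27 and passed the threshold (adjusted p = 0.000803 by limma). Plasminogen itself had a probe that was not valid.

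**Figure D4:**
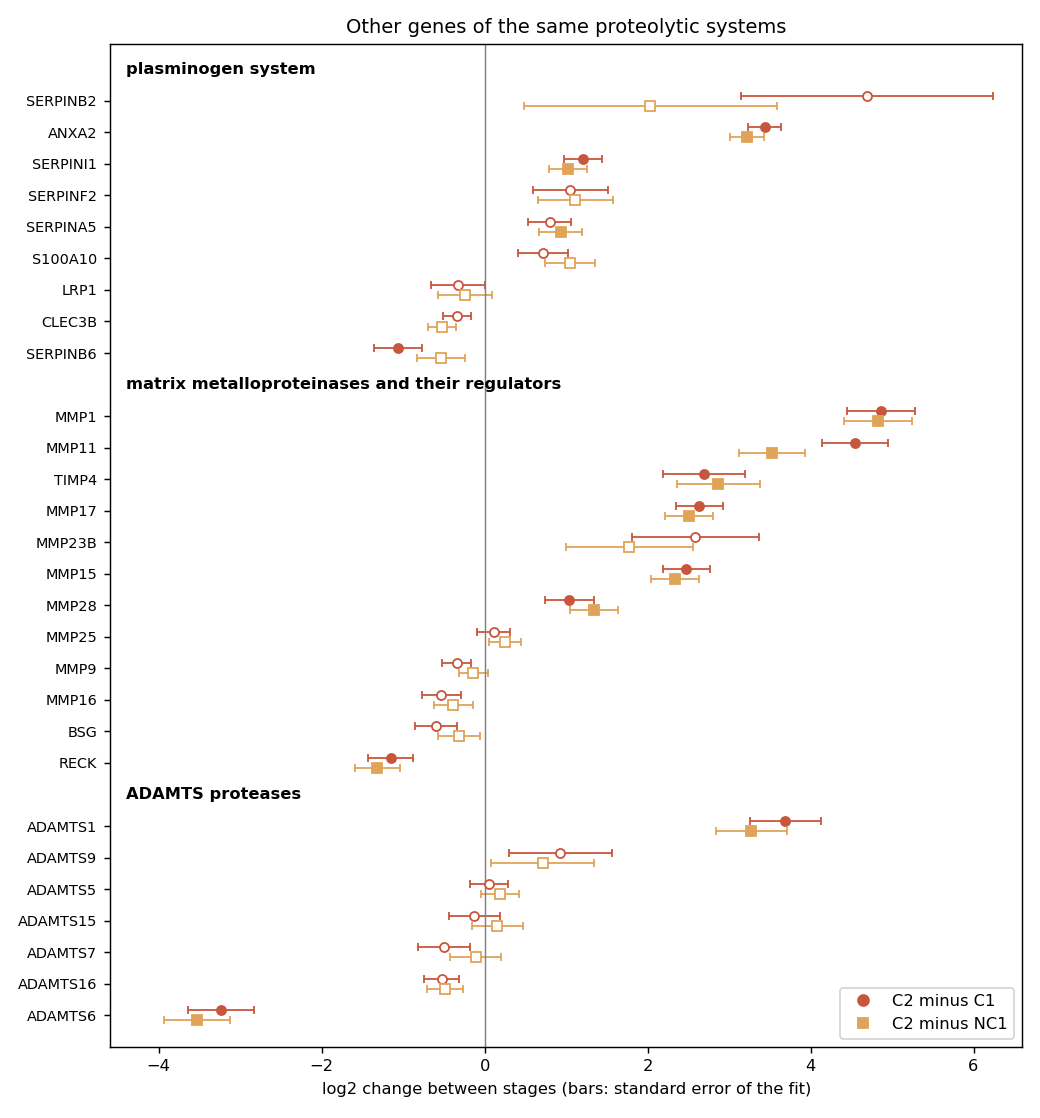
Log2 change from C1 to C2 (circles) and from NC1 to C2 (squares), with bars of 1 standard error, for the other genes of these systems that had a valid probe and are reported here, by list. Filled symbols passed an adjusted p of 0.01. MMP1 and MMP11 lie at 4.86 and 4.54 for C2 minus C1, and ADAMTS6 at -3.24.

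Of 23 further metalloproteinases and regulators, 12 could be tested, and 6 were higher and 1 lower in C2, both against C1 (beside 15.3% and 12.8% of all valid probes) and against NC1 (beside 15.5% and 12.6%). MMP1, the interstitial collagenase, had a log2 scaled signal of 2.24, 1.86, 4.27, 4.99 and 3.20 on C2 replicates 1 to 5, against -1.87 to -1.30 on C1 and -2.03 to -1.02 on NC1. All C2 arrays were above the others, with a rise of 4.86 over C1 (SE 0.42, adjusted p = 6.22e-08 by limma) and of 4.83 over NC1. A probe for a locus described as similar to interstitial collagenase was well above background on 0 of 17 arrays. MMP11, or stromelysin-3, was at 4.40, 3.07, 2.90, 3.00 and 4.09 on C2 and rose by 4.54 over C1 (SE 0.40, adjusted p = 7.46e-08 by limma) and by 3.53 over NC1. The membrane-bound MMP15 and MMP17 rose by 2.47 and 2.64 over C1 and by 2.33 and 2.51 over NC1, with no overlap of arrays.

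MMP28, or epilysin, rose by 1.34 over NC1. Its rise over C1, 1.04, passed the threshold narrowly (adjusted p = 0.00924 by limma), and was lost with 75th percentile scaling (0.91, adjusted p = 0.0396 by limma) and when any 1 of 14 of the 17 arrays was left out. TIMP4, a further tissue inhibitor, rose by 2.70 over C1 and by 2.87 over NC1. Its log2 scaled signal on C2 replicates 1 to 5 was 0.42, 3.26, 3.54, 2.99 and -0.02, all above the other stages and, as for TIMP2, lowest on replicates 1 and 5. RECK, a membrane-anchored inhibitor of metalloproteinases, was the gene of this list that fell, with a difference of -1.15 from C1 (SE 0.28, adjusted p = 0.00262 by limma) and -1.32 from NC1. The gelatinase MMP9 differed by -0.35 from C1 (adjusted p = 0.136 by limma) and the membrane-type MMP16 by -0.53 (adjusted p = 0.0814 by limma), and neither was called, although MMP16 passed the threshold with 75th percentile and with quantile scaling.

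Of 19 ADAMTS proteases, secreted relatives of the metalloproteinases, 7 could be tested. Some of the family cut proteoglycans such as versican. Among the 7, 1 rose and 1 fell in C2 against both other stages. This was near the 15.3% and 12.8% of all valid probes against C1 and the 15.5% and 12.6% against NC1. ADAMTS1, which cuts versican in the expanded cumulus matrix, was at 7.76, 5.22, 6.25, 6.55 and 7.43 on C2 replicates 1 to 5, and rose by 3.69 over C1 (SE 0.44, adjusted p = 2.58e-06 by limma) and by 3.27 over NC1. ADAMTS6 was at -0.87, -1.73, -2.46, -3.19 and -0.57, and differed by -3.24 from C1 (SE 0.41, adjusted p = 4.90e-06 by limma) and by -3.52 from NC1. ADAMTS1 was highest on replicates 1 and 5, as PLAUR and TIMP1 were. Over the 3 lists, 29 of 56 genes could be tested, of which 9 were higher and 3 lower in C2 than in C1, beside 15.3% and 12.8% of all valid probes, and 10 higher and 2 lower in C2 than in NC1, beside 15.5% and 12.6%. The count of lower genes was near that background. Between C1 and NC1 limma called 0 of the 29 genes, beside 0.0577% of all valid probes. At an unadjusted p below 0.05 the count was 1, and no share is given at that threshold. The lists' median log2 change was 0.80 from C1 to C2, against 0.02 over all valid probes.

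Other genes of the array followed single members over the 17 arrays, and the 3 with the highest Pearson's r are given for each. They were picked as the highest among all valid probes with a gene name, so that r is a description without a test. For members that rose in C2, r also carries the difference between stages. For PLAT these were FJX1 (r = 0.96), TSC22D1 and TGFBR2, a receptor of transforming growth factor beta. For PLAUR they were NID2 (r = 0.98), a basement membrane protein, CSRP3, and the collagen gene COL5A2. TIMP1 went with CDKN1C (r = 0.98), an inhibitor of the cell cycle, with the adhesion molecule VCAM1 and with PTX3, a protein of the expanded cumulus matrix. TIMP2 went with STAT4 (r = 0.98), IDH1 and SS18L1. For PLAU they were PTP4A2 (r = 0.92), LEPROTL1 and CASK, for SERPINE2 they were KDELR2 (r = 0.92), LYPLAL1 and OAT, and for the brighter MMP2 probe GPR4 (r = 0.79), DHDDS and FAM70A.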

How the data were processed

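Cy3-labelled RNA of cumulus cells was measured on Agilent bovine 1-colour arrays, 1 for each of 17 cow samples, and samples were grouped by the stage in their labels. The authors deposited a linear intensity per spot, background-subtracted and detrended by Feature Extraction 10.5.1.1 and not scaled between arrays. They also deposited a table of log2 values scaled by the median of each array, which served as an alternative. It holds 15256 probes, those present in 2 of the 3 stages. From the spots, log2 of the processed signal was averaged per probe, without flagged outliers, and the array median was subtracted. Presence required a uniform, unsaturated spot that was well above background, and a probe needed 50% or more of its spots present.

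Stages were compared with limma 3.58.1 in R 4.3.3 in 1 fit, adjusted by the Benjamini-Hochberg method over the 13865 valid probes with a threshold of 0.01. The script was tested on simulated data. Single probes were also compared by a 2-sided exact permutation test of the means, whose p is 2 times the smaller 1-sided p. A gene counts by its brightest valid probe, the one with the highest mean over all arrays. SE is that of the fitted difference, and p-values measure the spread between these samples, which the methods tie to 6, 6 and 5 animals per stage and the labels to none. Probe sequences come from the deposited files. Python 3.11.15 with pandas 2.3.3 and scipy 1.17.1 was used for the rest.

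Genes named are every member, the genes of 3 pathway lists past the threshold against C2 and the 3 genes most correlated with each member. Cell markers that moved with a member are also named. Other cell markers, and values of SERPINB2, MMP9, MMP16 and of the design's copies of ANXA2 and MMP1, were added after they were seen. The members and lists were chosen with earlier results of these data known. Scaling, background correction, filters, slide, scan day and replicate blocks, array weights, averaging of close C2 arrays and leaving out each array were tried as alternatives. Arrays of other species were not analysed here, and 1 gene counted in the lists is not reported here.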

Additional observations from a re-analysis of the deposited data

Results flagged for a closer look

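In 2 of the 30 sets of 6 or 5 arrays looked at, 10 probes at 3 stages, 1 array stood apart from the rest of its stage by Dixon's criterion at 95%, which chance meets in about 1 of 20 sets. SERPINE2 was at 11.33 on NC1 replicate 5, while the other NC1 arrays lay between 10.47 and 10.70. MMP14 was at -4.11 on NC1 replicate 3, where it was not well above background, while the other NC1 arrays lay between -2.89 and -2.63.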

How the results depend on the processing

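No alternative with a test ended a call of PLAT, PLAUR, TIMP1 or TIMP2, and the members called between C1 and NC1 stayed at 0. The members called rose from 4 to 5 against both C1 and NC1 with array weights and without C2 replicate 2, and against NC1 with normexp, with PLAU added. They were also 5 against NC1 with the looser presence filter and with none, which let MMP14 in. MMP14 passed the looser filter through C1 and C2, where it was higher, so that its call there is only descriptive. The replicate numbers do not pair the samples, since the animals differ between stages, and same-numbered arrays deviated from their stage means with r from -0.32 to 0.25. With the replicate block the members' counts stayed at 4, 4 and 0, and the pathway genes called were 12 against C1 and 11 against NC1, where 12 and 12 were called without it. Of 24 calls of pathway genes, 21 held under all alternatives that tested them. The exceptions were MMP28 and SERPINB6 against C1 and SERPINA5 against NC1. Of the 903 alternative values of single probes, which include the probe described as TIMP3, 0 reversed a call, 10 gained one (PLAU, MMP14 and that probe) and 1 lost one (MMP14 with normexp). In 67 an uncalled difference changed sign, between -0.73 and 1.41. PLAU passed the threshold with array weights (1.26 against C1 and 1.45 against NC1), with normexp against NC1 (1.18) and without C2 replicate 2. Scaling by the 75th percentile moved the median C2 to C1 change of all valid probes from 0.02 to -0.11, well below the 4 rises. With normexp the probes called in C2 against NC1 were 2468 higher and 1200 lower, against 2152 and 1741. Between C1 and NC1, 8 valid probes were called, 239 with array weights and 2 with the slide as a block; the cause was not tested. Signal near background limits what the arrays show for MMP14, and 5 or 6 arrays per stage limit precision for all genes.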
